A study of Mus musculus with 6 samples.

Results

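Expression of 7 genes of the PTHrP, calcium sensing and RANKL axis was examined in 6 mammary tumors, out of the 54532 Ensembl gene IDs measured in each. The genes were chosen by symbol, as the rows whose ID maps on GRCm38 to Pthlh, Pth1r, Tnfsf11, Tnfrsf11a, Tnfrsf11b, Casr or Atp2b2, because Pthlh was known from these same tumors to be much higher after anti-PD-1. Differences of the 7 genes between the treatments are therefore given as a description, without a test.

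Bulk RNAseq was performed on tumors from NeuT/ATTAC mice of the FVB strain, with 3 tumors from treatment with isotype-matched IgG and 3 from treatment with an anti-PD-1 mAb. All of the mice carried both an Erbb2 transgene under the MMTV promoter, active in mammary epithelium, and the FAT-ATTAC transgene, by which AP20187 kills adipocytes and leaves a fibrotic gland. Both groups received 0.4 mg/kg AP20187 starting at 6 weeks of age, on a biweekly schedule in the labels and a triweekly one in the methods, followed from 8 weeks by 2 weekly doses of 100 μg antibody. The study's text describes the sequenced RNA as pooled, whereas 3 separate profiles per group were used here. There was no group without AP20187 and none without antibody, and while the methods give 4 months of antibody treatment, the age at which each tumor was taken was not given in the sources used here.

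Parathyroid hormone-related protein (PTHrP, encoded by Pthlh) acts through the G protein-coupled receptor PTH1R, and in the mammary gland it directs the embryonic bud and, during lactation, releases calcium from the skeleton. The calcium-sensing receptor (CaSR) of mammary epithelial cells adjusts PTHrP output to extracellular calcium, and the pump PMCA2 (Atp2b2) moves calcium across the apical membrane into milk. RANKL (Tnfsf11) binds its receptor RANK (Tnfrsf11a) to drive osteoclast formation in bone and progesterone-dependent growth of mammary epithelium, and osteoprotegerin (OPG, Tnfrsf11b) is the soluble decoy receptor that captures it. PTHrP from breast tumors is a known cause of hypercalcemia and of bone loss.

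The annotated start sites of these genes fell into different sequence classes. RefSeq windows on GRCm38.p6, reaching from 250 bases before to 50 bases after a start, were found for 6 of the 7 genes, and none was found for Tnfrsf11b. Those of Pthlh and Atp2b2 are shown because the treatment groups did not overlap for these genes, and those of Tnfrsf11a and Tnfsf11 because this receptor and its ligand stood far apart in level. Each is written 5′ to 3′ on the strand of the gene, and capitals mark matches to 10 motifs searched on both strands.
Pthlh, chr6:147263964-147264263, minus strand: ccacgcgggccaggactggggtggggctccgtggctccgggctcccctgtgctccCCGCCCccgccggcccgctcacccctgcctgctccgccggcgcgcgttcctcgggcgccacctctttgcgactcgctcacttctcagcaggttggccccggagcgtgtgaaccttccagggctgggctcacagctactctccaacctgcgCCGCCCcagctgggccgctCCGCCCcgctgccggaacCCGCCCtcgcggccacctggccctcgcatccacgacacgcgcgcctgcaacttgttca
Atp2b2, chr6:114042031-114042330, minus strand: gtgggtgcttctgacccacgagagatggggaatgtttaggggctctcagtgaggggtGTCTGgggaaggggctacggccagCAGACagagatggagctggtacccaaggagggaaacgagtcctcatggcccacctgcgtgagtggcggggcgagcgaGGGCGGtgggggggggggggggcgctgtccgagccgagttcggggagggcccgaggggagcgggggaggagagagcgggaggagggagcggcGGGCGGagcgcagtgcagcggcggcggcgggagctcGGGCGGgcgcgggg
Tnfrsf11a, chr1:105780473-105780772, plus strand: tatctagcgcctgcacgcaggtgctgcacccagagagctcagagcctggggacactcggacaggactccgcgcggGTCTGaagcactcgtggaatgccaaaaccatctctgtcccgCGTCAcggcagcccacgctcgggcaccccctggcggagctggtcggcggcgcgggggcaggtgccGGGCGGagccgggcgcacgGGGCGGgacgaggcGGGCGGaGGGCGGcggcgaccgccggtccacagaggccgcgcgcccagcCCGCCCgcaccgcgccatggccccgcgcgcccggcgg
Tnfsf11, chr14:78307994-78308293, minus strand: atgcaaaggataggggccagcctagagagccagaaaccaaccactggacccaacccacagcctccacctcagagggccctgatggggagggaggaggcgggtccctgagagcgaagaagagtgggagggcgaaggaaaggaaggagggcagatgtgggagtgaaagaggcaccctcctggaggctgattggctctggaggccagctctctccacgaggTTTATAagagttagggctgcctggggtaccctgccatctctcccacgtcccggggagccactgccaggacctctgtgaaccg

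The Pthlh window was 74.0% G and C with 33 CpG dinucleotides, and it held 4 matches to the GC box (GGGCGG), a motif found in 35.7% of the 32851 RefSeq windows of this length. The windows of Atp2b2 and Tnfrsf11a were of the same kind, with 72.7% G and C, 27 CpG and 3 GC boxes in the first and 76.7%, 43 CpG and 5 GC boxes in the second. Both also held the SMAD motif GTCTG, which 49.6% of windows have, and that of Tnfrsf11a held 1 match to the CRE half-site TGACG, which 20.8% have. The Tnfsf11 window differed from these, with 61.7% G and C, 7 CpG and no GC box. Its only match was a TATA box (TATAAA, in 13.6% of windows) on the opposite strand, beginning 32 bases before the start. Over all windows the medians were 52.7% G and C and 7 CpG. The start used for Atp2b2 was 533 bases from the outermost end in the GENCODE annotation, and Atp2b2 and Pth1r each had further windows.

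The other motifs searched had no match in the 4 windows. They were the ETS motif CGGAAG (16.9% of windows), the full CRE TGACGTCA (1.79%), which contains the half-site, the AP-1 site TGANTCA (7.81%), the STAT site TTCNNNGAA (8.3%), the GLI motif GGGTGGTC (0.807%) and the E-box CACGTG (7.15%). The Casr window, by comparison, had 49.7% G and C, 4 CpG and no match to any of the 10 motifs. A match is given as letters only, and no binding was measured in these tumors.

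The deposited values are FPKM, the fragments counted on a gene per kb of exon and by the size of the library, so that levels may be compared between genes. They were scaled by factors between 1.00 and 1.01. A deposited value times exon length, divided by the product that stands for 1 read in that tumor, gave back the reads behind it. That product was estimated from the low values. Reads of genes that came out whole in every tumor summed to between 17243241 and 19880232 per tumor. The library totals implied by the product were 22009839 to 25596137. In a gene with 2 kb of exons, 3 reads corresponded to 0.0586 to 0.0682 FPKM. Intervals on reads cover counting error only. Luminal epithelial markers (8 genes, Krt8 and Erbb2 among them) summed to 2156 to 2961 FPKM in IgG tumors and 3017 to 3949 in anti-PD-1 tumors, with 0 of 8 called higher and 1 lower, and the groups overlapped without Epcam or without Cldn3. Fewer cells of a type and less RNA per cell cannot be told apart in such bulk samples. With the 15069 genes that averaged 0.5 FPKM or more, limma gave no adjusted p under 0.05 (0.0% of genes). The unadjusted p was under 0.05 for 1848 genes, and limma's voom method on the recovered reads left 1 gene, Fetub, named after its value was seen, with an adjusted p under 0.05.

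Pthlh differed more between the treatments, in FPKM, than any other member. In IgG tumors it measured 1.06, 0.102 and 0.10 FPKM, from 38, 4 and 4 reads, and in anti-PD-1 tumors 4.98, 8.88 and 4.71 FPKM, from 207, 351 and 182 reads. Each anti-PD-1 tumor was above each IgG tumor, the highest IgG value lying far under the lowest anti-PD-1 value. The means were 0.420 ± 0.552 and 6.19 ± 2.34 FPKM (SD, n = 3 each), a 14.7-fold ratio. IgG replicate 1 supplied most of the IgG reads, and without it the ratio was 61.2. On the scale of log2(FPKM + 1), which understates changes of low genes, the difference was 2.36 (SE 0.33). The pooled reads gave 15.4-fold, with an exact 95% interval of 11.4 to 21.2. Pthlh (ENSMUSG00000048776) spans chr6:147252101-147264183 on the minus strand, and tested genes of chromosome 6 had a median log2 fold change of 0.04.

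**Figure D1:**
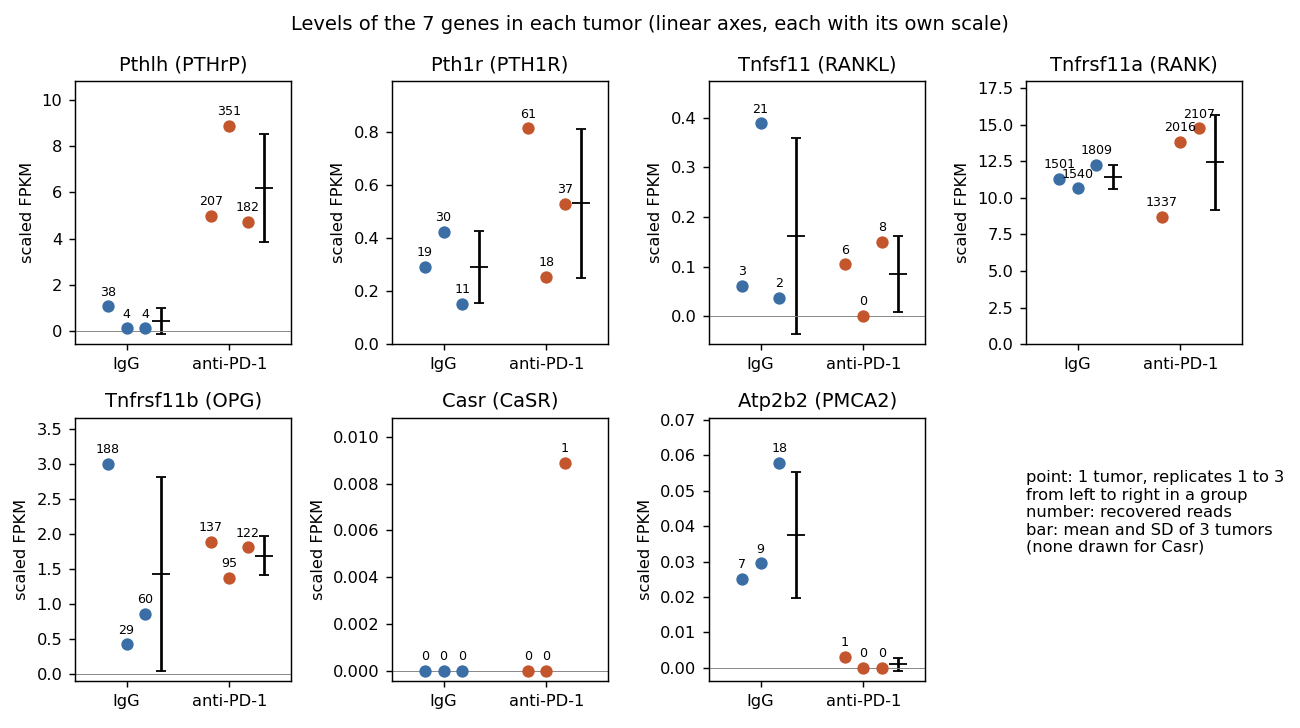
Scaled FPKM of the 7 genes in each tumor (vertical axes linear and separate for each gene), with IgG tumors in blue, anti-PD-1 tumors in orange, recovered reads as numbers, and bars for the mean and SD of 3 tumors. Pthlh is 0.10 to 1.06 after IgG and 4.71 to 8.88 after anti-PD-1, Atp2b2 has 34 reads against 1, and the groups overlap in the other 5 panels.

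Pth1r, the receptor of PTHrP, was low in every tumor. It measured 0.293, 0.424 and 0.153 FPKM after IgG and 0.813, 0.252 and 0.529 FPKM after anti-PD-1, from 11 to 61 reads. The groups overlapped, as anti-PD-1 replicate 2 lay below IgG replicates 1 and 2. The means of 0.290 ± 0.136 and 0.531 ± 0.28 FPKM differed by 0.24 (SE 0.17) on the log2(FPKM + 1) scale. Their ratio was 1.83, and the pooled reads gave 1.85-fold, with an exact 95% interval of 1.34 to 2.57. In the tumors with much Pthlh the receptor thus stayed under 1 FPKM, and the tumor with most Pthlh had the lowest Pth1r of its group. Pth1r (ENSMUSG00000032492, chr9:110722085-110747145, minus strand) overlaps Myl3 on the opposite strand, whose level was at most 0.200 FPKM. Tested genes of chromosome 9 had a median log2 fold change of -0.36, opposite in sign to that of Pth1r. Parathyroid hormone itself (Pth), the other ligand of this receptor, and the related Pth2 were at 0 reads in all 6 tumors.

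RANKL was scarce. Tnfsf11 measured 0.0605, 0.388 and 0.0363 FPKM in IgG tumors, from 3, 21 and 2 reads, and 0.105, 0 and 0.150 FPKM in anti-PD-1 tumors, from 6, 0 and 8 reads. A single IgG tumor, replicate 2, was above the rest, and the groups overlapped. Their means were 0.162 ± 0.197 and 0.0848 ± 0.0768 FPKM, a ratio of 0.52, anti-PD-1 over IgG. The difference of -0.09 (SE 0.13) in log2(FPKM + 1) became 0.047 without IgG replicate 2. That tumor also had the highest sum of the 8 T cell markers, 4.26 FPKM against 0.81 to 1.83 in the other 5, and of the 5 B cell markers, 3.43 against 0.16 to 0.80. The part of these cells in the Tnfsf11 value was not tested. Tnfsf11 (ENSMUSG00000022015) lies at chr14:78277445-78308043 on the minus strand.

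**Figure D2:**
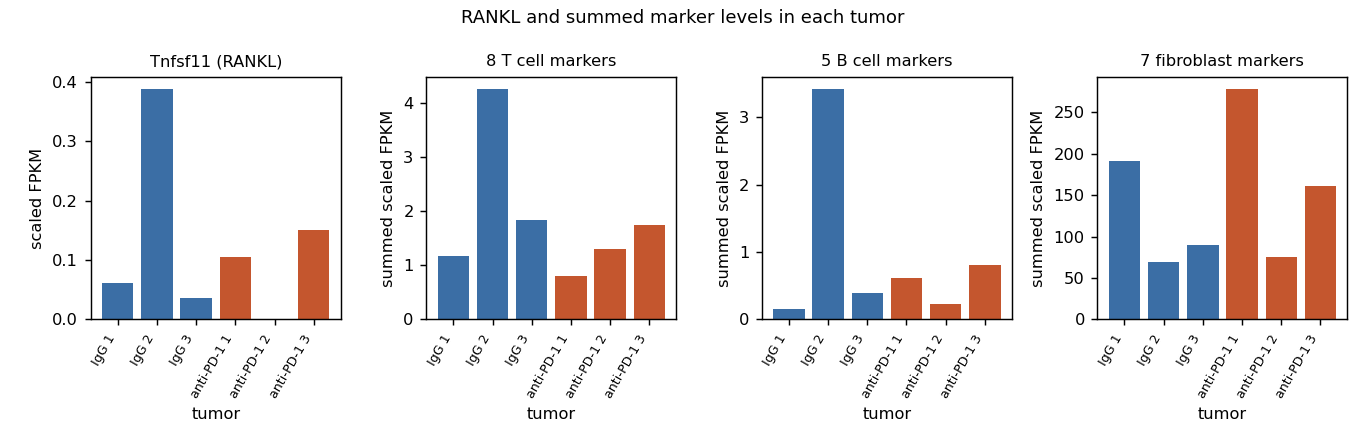
Scaled FPKM of Tnfsf11 (RANKL) and summed scaled FPKM of T cell, B cell and fibroblast markers, 1 bar per tumor, IgG in blue and anti-PD-1 in orange (linear axes from 0). IgG replicate 2 has the tallest bar for Tnfsf11 (0.388), T cell markers (4.26) and B cell markers (3.43), and the fibroblast sum is lowest there (69.4).

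RANK was the most abundant of the 7 transcripts. Tnfrsf11a measured 11.3, 10.6 and 12.3 FPKM in IgG tumors and 8.71, 13.8 and 14.7 FPKM in anti-PD-1 tumors, from 1337 to 2107 reads. The anti-PD-1 tumors held both the lowest and the highest values, so that the IgG range lay inside theirs. The means were 11.4 ± 0.816 and 12.4 ± 3.24 FPKM, and the difference of 0.08 (SE 0.21) in log2(FPKM + 1) was smaller than its error. Without anti-PD-1 replicate 3 it was -0.047. Tnfrsf11a (ENSMUSG00000026321) lies at chr1:105780718-105847981 on the plus strand.

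OPG varied widely among the control tumors. Tnfrsf11b measured 3.01, 0.426 and 0.864 FPKM after IgG, from 188, 29 and 60 reads, and 1.89, 1.38 and 1.81 FPKM after anti-PD-1, from 137, 95 and 122 reads. The 3 anti-PD-1 values fell between the second and the highest IgG value. The means were 1.43 ± 1.38 and 1.70 ± 0.276 FPKM, with a difference of 0.29 (SE 0.38) in log2(FPKM + 1). The ratio of means was 1.18, and without IgG replicate 1 it was 2.63. Without IgG replicate 2 the log2 difference was -0.025. The IgG tumor with the highest OPG also had the highest sum of the 7 fibroblast markers of its group, 191 FPKM against 69.4 and 90.3, and in anti-PD-1 tumors this sum was 278, 74.9 and 161 FPKM. Whether fibroblast content bears on OPG was not tested. Tnfrsf11b (ENSMUSG00000063727) lies at chr15:54250619-54278484 on the minus strand, on a chromosome with a median log2 fold change of 0.17.

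Set against each other per tumor, the receptor exceeded the decoy in all 6 tumors and the decoy exceeded the ligand. Tnfrsf11a was 3.76, 25.0 and 14.2 times Tnfrsf11b in IgG tumors and 4.60, 9.99 and 8.13 times in anti-PD-1 tumors. The log2 ratio of RANKL to OPG, with 0.1 FPKM added to both, was -4.27, -0.11 and -2.82 in IgG tumors and -3.29, -3.89 and -2.94 in anti-PD-1 tumors. The IgG tumors spanned the anti-PD-1 range on either side. The group means of -2.40 ± 2.12 and -3.37 ± 0.48 differed by -0.97, and without IgG replicate 2, where ligand and decoy were nearly equal, by 0.18. The difference also depended on the added constant, being -0.56 with 0.5 FPKM and -1.63 with 0.01 FPKM.

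Casr was at the limit of detection. It had 0 reads in 5 tumors and 1 read in anti-PD-1 replicate 3 (0.00887 FPKM), where 3 reads would be 0.0248 to 0.0289 FPKM and the exact 95% upper limit for 0 reads was 0.0305 to 0.0355 FPKM. No direction can be read from 1 read. Casr (ENSMUSG00000051980) lies at chr16:36493696-36562141 on the minus strand.

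Atp2b2, which encodes PMCA2, was present in traces and went the other way from Pthlh. It had 7, 9 and 18 reads in IgG tumors (0.0250, 0.0295 and 0.0579 FPKM) and 1, 0 and 0 reads in anti-PD-1 tumors (0.00309, 0 and 0 FPKM). The groups did not overlap, and no value exceeded 0.0579 FPKM. The ratio of pooled reads, IgG over anti-PD-1, was 35.5 with an exact 95% interval of 5.96 to 1444. IgG replicate 3 supplied 18 of the 34 IgG reads, and the only anti-PD-1 read was in replicate 1. On the log2(FPKM + 1) scale the difference was only -0.05 (SE 0.03), since the scale compresses values near 0. Atp2b2 (ENSMUSG00000030302, chr6:113743831-114042613, minus strand) contains or overlaps Gm15082, Gm15083 and Gm44167, all at 0 in every tumor.

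In order of the mean over the 6 tumors, the levels were 11.9 FPKM for Tnfrsf11a, 3.31 for Pthlh, 1.56 for Tnfrsf11b, 0.411 for Pth1r, 0.123 for Tnfsf11, 0.0193 for Atp2b2 and 0.00148 for Casr. Tnfrsf11a was above 84.6% of the 28732 genes detected in any tumor, Pthlh above 67.0%, and Atp2b2 above 11.0%. The ranges of neighbouring genes in this order overlapped throughout. Within a tumor, Tnfrsf11a was above Pthlh in all 6, Tnfrsf11b above Pth1r in all 6 and Pth1r above Tnfsf11 in all 6. Pthlh was above Tnfrsf11b in 3 tumors, the 3 given anti-PD-1.

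Of the 7 genes, 3 (Pthlh, Tnfrsf11a and Tnfrsf11b) averaged 0.5 FPKM or more and entered the fit, and Pth1r, Casr, Tnfsf11 and Atp2b2 did not. Pthlh passed this limit only through the anti-PD-1 tumors, its IgG mean being 0.420 FPKM. Groups lay apart for 2 of 7, with Pthlh above and Atp2b2 below. Among detected genes, 6.14% had all anti-PD-1 tumors above all IgG tumors and 6.43% had them below. Since Pthlh guided the choice of genes, nothing is read from these shares.

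Several genes followed the members across the tumors, as described by Pearson's r over log2(FPKM + 1) of the 6 tumors and 12408 protein-coding genes. Nearest to Pthlh were Clns1a (r = 0.997), Mettl16 (0.996), Psmd2 (0.995), Snx15 (0.988) and Syvn1 (0.988). Their ranges were narrow next to that of Pthlh, Clns1a for instance measuring 11.0 to 12.6 FPKM in IgG tumors and 14.7 to 16.0 in anti-PD-1 tumors. In each of these genes all anti-PD-1 tumors lay above all IgG tumors. Pthlh was chosen for its difference between the treatments, so a high r with it largely restates a difference between the groups. With 6 points in 2 treatment groups, 441 genes had r above 0.9 with Pthlh. Nearest to Tnfrsf11a were Sirt4 (0.997), Fbxo32 (0.991) and Mdm4 (0.983), and nearest to Tnfrsf11b were Castor1 (0.980), Thbs2 (0.976) and Gtpbp8 (0.975). For these receptors 57 and 68 genes had r above 0.9.

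The rest of the axis was followed through 8 lists with 140 genes, none of them members. Of these, 121 could be tested. A gene was counted as higher or lower where the unadjusted limma p was under 0.05 and the change at least 1.5-fold, which held for 3.9% of all tested genes in the higher and 4.53% in the lower direction. Of the list genes 6 were higher (4.96%) and 11 lower (9.09%), and the smallest adjusted p in limma was 0.344. The median log2 fold change was -0.03, against 0.01 over all tested genes. The count of lower genes was 3 without IgG replicate 2 and 6 without IgG replicate 3. It was 5 when anti-PD-1 replicate 2 was left out and 7 when replicate 3 of that group was, in which case the count of higher genes was 3. In all 6 fits that left out 1 tumor, the calls of Ccnd1, Nfkb2, Ets1, Atp2c1 and Stat5a held. Those of Ap2s1 (without anti-PD-1 replicate 2) and Egfr (without IgG replicate 2) were lost in 1 fit, that of Nr4a1 in 2 (without anti-PD-1 replicate 1 or 3), and those of Orai1, Tgfb1, Pde4b and Stat5b in 3. Vdr, Id2 and Stc2 lost theirs in 4 fits, and Map3k7 in 5, all but that without IgG replicate 1. With quantile normalization of all tumors, 4 list genes were higher and 12 lower. Nr4a1 (0.94, limma unadjusted p over 0.05) and Orai1 (under 1.5-fold) were then not called. Of the 11 lower genes, Pde4b and Map3k7 lie on chromosome 4 and Ets1 and Atp2c1 on chromosome 9, where the medians of tested genes were -0.40 and -0.36. The part of these chromosome-wide differences in the 4 genes was not tested.

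**Figure D3:**
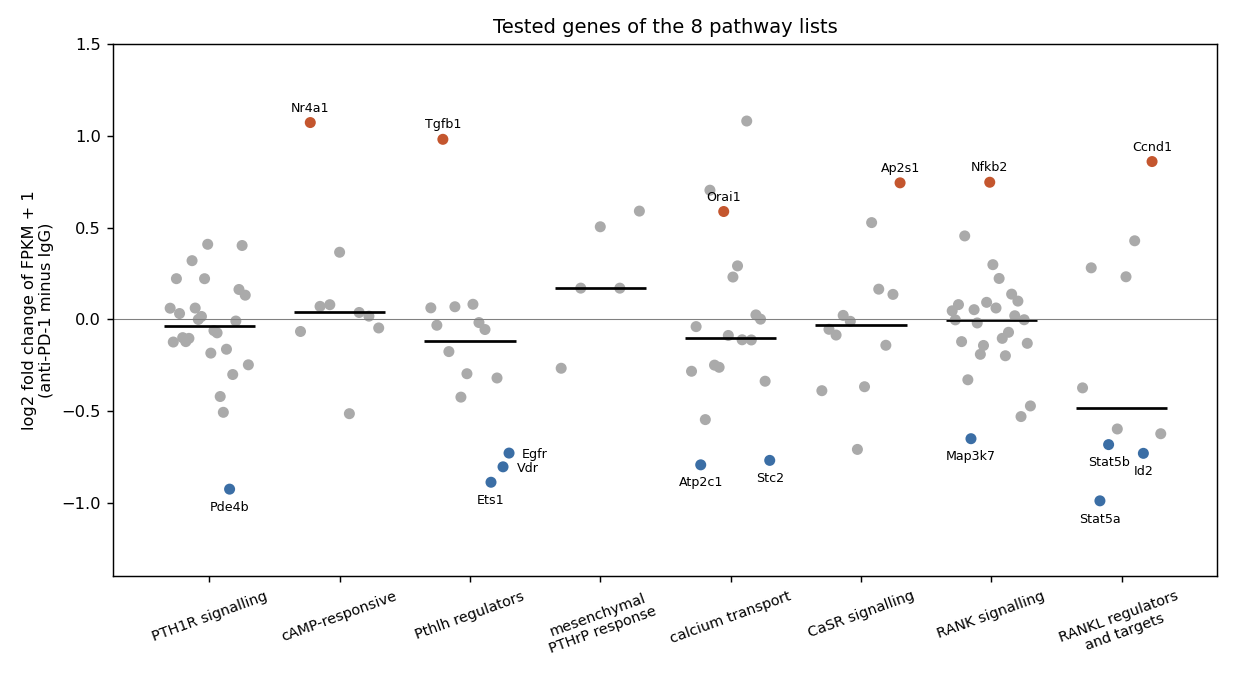
Log2 fold change of FPKM + 1 (anti-PD-1 minus IgG) for the tested genes of the 8 lists, 1 point per gene and 1 gene not shown, with black lines at list medians. Named points passed the unadjusted threshold, 6 higher in orange and 10 lower in blue, and the lowest median is that of the RANKL regulators and targets (-0.49).

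Downstream of PTH1R, 0 of 26 tested genes for G proteins, adenylyl cyclases, protein kinase A and its effectors were higher and 1 was lower. That was Pde4b, a phosphodiesterase that breaks down cAMP, at 4.52, 8.59 and 6.18 FPKM after IgG and 4.43, 2.50 and 1.92 after anti-PD-1 (log2 fold change -0.92, SE 0.30, limma adjusted p = 0.355). Slc9a3r1, a scaffold that binds PTH1R, was under the 1.5-fold limit at 0.40 (SE 0.17), and the kinase Sik3 was at -0.51 (SE 0.23). Of 9 tested cAMP-responsive genes 1 was higher and 0 lower. Nr4a1, an immediate early nuclear receptor, measured 41.0, 18.2 and 57.1 FPKM after IgG and 73.1, 64.8 and 88.3 after anti-PD-1, without overlap (1.07, SE 0.39, limma adjusted p = 0.370). The related Nr4a2 stayed between 1.07 and 2.03 FPKM with overlapping groups. Sik1 (-0.51, SE 0.49) and Rgs2 (0.37, SE 0.42), both induced by cAMP, differed by about their error.

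Among regulators of Pthlh, 1 of 14 tested genes was higher and 3 were lower. Tgfb1, a growth factor, measured 10.1, 4.82 and 10.2 FPKM after IgG and 20.8, 11.4 and 19.6 after anti-PD-1. Its log2 fold change was 0.98 (SE 0.33, limma adjusted p = 0.357). All anti-PD-1 values were above all IgG values, the nearest being 11.4 and 10.2. Tgfb3 was far more abundant, at 81.2 to 121 FPKM, and its groups overlapped. Lower were Ets1, a transcription factor of the Pthlh promoter (-0.89, SE 0.20, limma adjusted p = 0.344), and the receptor Egfr (-0.73, SE 0.21, limma adjusted p = 0.344). Vdr, the vitamin D receptor, passed the threshold too (-0.80, SE 0.34), with overlapping groups, and is named here after its value was seen. Shh was at 0 in all tumors, while the hedgehog receptor Ptch1 measured 2.67 to 4.10 FPKM.

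Of the mesenchymal genes that answer PTHrP in the mammary bud, 0 of 6 tested were higher and 1 was lower. Bmpr1a, the BMP receptor of this response, was at -0.27 (SE 0.19), and the matrix protease Mmp2 at 0.59 (SE 0.46), with overlap in both.

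In calcium transport, 1 of 18 tested genes was higher and 2 were lower. Orai1, the pore of store-operated calcium entry, measured 30.3, 37.8 and 24.2 FPKM after IgG and 46.5, 43.4 and 48.2 after anti-PD-1. Its log2 fold change was 0.59 (SE 0.19, limma adjusted p = 0.355). With FPKM as deposited it was 0.58 and with quantile normalization 0.49, both under 1.5-fold. Atp2c1, the Golgi calcium pump, measured 13.4, 19.5 and 19.8 against 11.3, 8.90 and 8.69 FPKM (-0.79, SE 0.20, limma adjusted p = 0.344). Stc2, which encodes the secreted protein stanniocalcin 2, was also lower (-0.77, SE 0.28, limma adjusted p = 0.374). Of the other plasma membrane pumps, Atp2b1 was at 9.33 to 20.9 FPKM and Atp2b4 at 0.27 to 0.92 FPKM, and Atp2b3 had at most 0.008 FPKM. The epithelial channel Trpv6, picked after its values were seen, was 0.33, 0.69 and 0.22 FPKM in IgG tumors and 4.01, 0.30 and 2.98 in anti-PD-1 tumors. It was high in 2 of 3 anti-PD-1 tumors and its groups overlapped (1.08, SE 0.49, limma adjusted p = 0.427).

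Of the genes that act with CaSR, 1 of 12 tested was higher and 0 were lower, in tumors with at most 1 read of the receptor itself. Ap2s1, the adaptor subunit that governs uptake of CaSR and of many other receptors, measured 51.0, 41.8 and 42.8 FPKM after IgG and 65.6, 97.1 and 69.1 after anti-PD-1 (0.74, SE 0.20, limma adjusted p = 0.344). Itpr2, a calcium release channel, did not reach 1.5-fold (0.53, SE 0.17), and the G protein subunit Gnai2 was at -0.39 (SE 0.30). Gprc6a and Gcm2 were at 0 in every tumor.

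Downstream of RANK, 1 of 26 tested genes was higher and 1 was lower. Nfkb2, the precursor of p52 in the noncanonical NF-κB branch, measured 17.3, 10.7 and 9.77 FPKM after IgG and 19.4, 23.6 and 20.7 after anti-PD-1 (0.75, SE 0.23, limma adjusted p = 0.349). Map3k7, the kinase TAK1, measured 7.97, 14.8 and 13.1 against 7.15, 6.97 and 6.97 FPKM (-0.65, SE 0.23, limma adjusted p = 0.369), and without IgG replicate 2 its difference was -0.49, under 1.5-fold. The ubiquitin ligase Cbl was at -0.53 (SE 0.22, limma adjusted p = 0.397), with overlap. The osteoclast regulator Nfatc1 measured 0.80 to 1.51 FPKM, and Relb and Traf6 had overlapping groups.

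The list with the lowest median, -0.49, was that of RANKL regulators and targets in mammary epithelium, with 1 of 10 tested genes higher and 3 lower. Stat5a, which conveys prolactin signals, measured 10.1, 18.5 and 18.9 FPKM after IgG and 9.08, 5.11 and 7.92 after anti-PD-1 (-0.99, SE 0.29, limma adjusted p = 0.346). Its neighbor Stat5b measured 17.2, 26.8 and 29.7 against 14.7, 12.8 and 16.2 FPKM (-0.68, SE 0.23, limma adjusted p = 0.355). In both genes IgG replicate 1 was the control tumor closest to the anti-PD-1 range. Id2, a target of RANK in the gland that passed the threshold with overlapping groups, is named after its value was seen (-0.73, SE 0.28). Ccnd1, which encodes the RANKL-induced cyclin D1, was higher, at 62.7, 52.3 and 38.3 FPKM after IgG and 86.7, 76.9 and 116 after anti-PD-1 (0.86, SE 0.24, limma adjusted p = 0.344). The progesterone receptor Pgr was at most 0.47 FPKM in any tumor, whereas the prolactin receptor Prlr measured 7.02 to 13.6 FPKM.

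**Figure D4:**
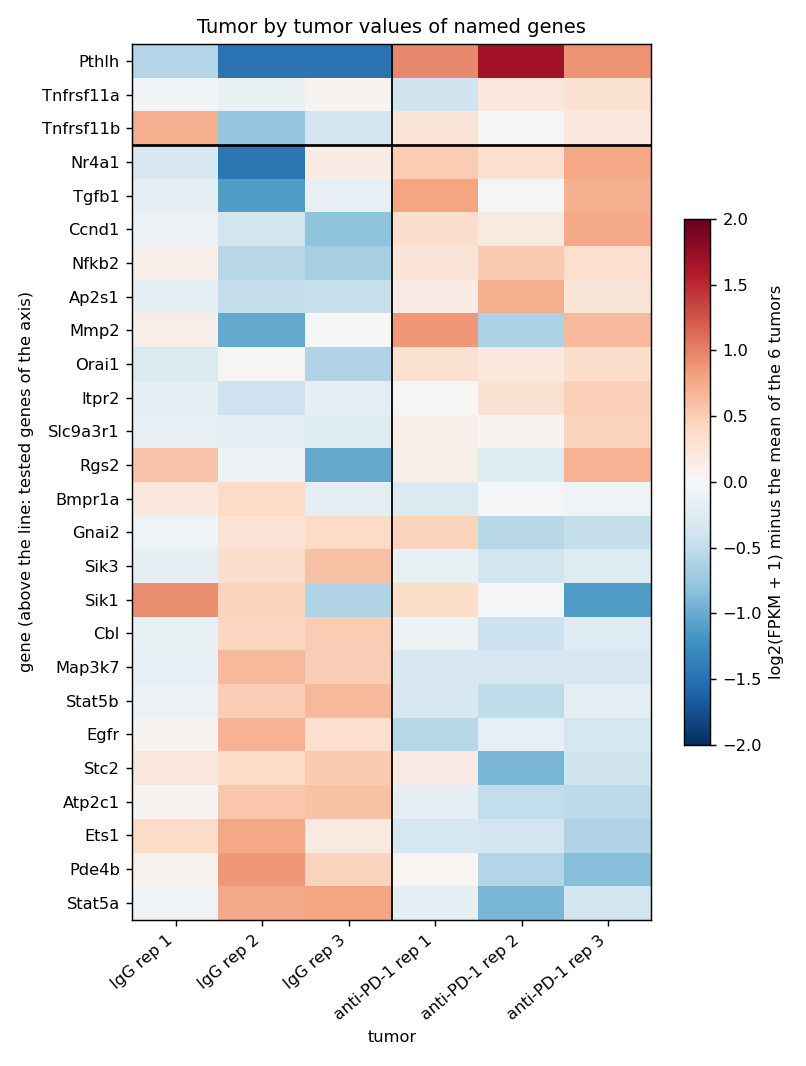
Values of the 3 members that entered the fit (above the line) and of 23 list genes named by rule. They are log2(FPKM + 1) minus the mean of the 6 tumors, 1 column per tumor and IgG tumors on the left. IgG replicate 1 has the Pthlh value nearest to the anti-PD-1 tumors (1.06 FPKM), and Stat5a and Stat5b are also nearest there among the controls.

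Markers of cells that make or answer these factors were followed as sums in each tumor. The 9 osteoclast markers summed to 54.1 to 88.1 FPKM in IgG and 42.7 to 77.5 in anti-PD-1 tumors, none of the 4 tested was called in either direction, and Calcr, the calcitonin receptor that defines this cell, was at 0 throughout. The 10 osteoblast and cartilage markers summed to 23.2 to 30.1 and 10.1 to 20.8 FPKM without overlap, 1 of 4 tested (Alpl, alkaline phosphatase) being lower, and the defining Ibsp and Sost were at 0. Without Alpl the sums were 2.43 to 8.11 and 3.30 to 8.10 FPKM, with overlap. The 8 keratinocyte markers, a cell type known for PTHrP, summed to 1.75 to 3.52 and 3.64 to 6.79 FPKM, with Ivl and Sprr1b at 0. Dsg3, the higher one of the 2 tested, made up most of this difference, and without it the sums were 1.44 to 1.58 and 1.03 to 2.05 FPKM, with overlap. The groups also overlapped, narrowly, without Krt6a (up to 3.43 and from 3.42 FPKM). The anti-PD-1 tumor with most Pthlh, replicate 2, had the lowest sum of its group both with and without Dsg3. The 8 basal markers summed to 23.9 to 30.3 and 17.6 to 43.9 FPKM with overlap, 1 of 7 tested being lower, and without Acta2, the smooth muscle actin also of myofibroblasts, to 8.50 to 13.6 and 5.80 to 7.17 FPKM, without overlap. The 7 macrophage and dendritic cell markers summed to 39.5 to 50.9 and 53.4 to 73.5 FPKM, with 1 of 6 tested (Cd68) higher, and without Cd68 to 25.8 to 35.9 and 23.0 to 44.4 FPKM, with overlap. Alpl, Dsg3, Krt6a, Acta2 and Cd68 are named after their values were seen.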

How the data were processed

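The authors trimmed reads with cutadapt 3.5 and counted them with RSEM 1.3.1 and Bowtie2 2.4.1 on mm10, by the methods and the submitters' processing notes, which also list DESeq2 1.36.0. The FPKM values deposited by the authors cover 54532 gene IDs for each of the 6 tumors, and how FPKM was computed is not given in the sources used here. Symbols, positions and merged exon lengths came from GENCODE M21 on GRCm38, which matched 54495 IDs. FPKM times exon length, divided by the product for 1 read, was a whole number, within 0.1, in 96.8% to 97.3% of detected values per tumor. For 939 of 28732 detected genes it was not whole in every tumor.

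FPKM was divided by median-of-ratios factors, and log2(FPKM + 1) was fitted with limma 3.58.1 (lmFit, eBayes with an intensity trend, R 4.3.3), two-sided. Genes averaging under 0.5 FPKM across the tumors were left out, and Benjamini-Hochberg adjustment ran over the remaining 15069. Log2 fold changes of the 4 members below that limit came from the fit of all detected genes. Read intervals were exact Poisson or binomial at 95%. With 3 tumors against 3, an exact permutation test of a single gene could not go below p = 0.10, and none was used. The labels do not say whether tumors of a group came from separate mice. The p-values therefore rest on the spread between these samples, which may be partly technical. Named genes were the 7 members and up to 3 genes per list with the smallest limma p. The 5 (Pthlh) or 3 genes most correlated with each member in the fit were also named. Other list and marker genes given with values, such as related family members, receptors and the markers that decide a sum, were picked after their values were seen. The values of 1 list gene are not reported here, although counts over lists include it. The members and the 8 pathway and 12 marker lists were chosen with earlier results of these data known. Alternatives were another added constant, other filters, scalings and variance models, the replicate number as a block, voom on recovered reads with TMM factors, and leaving out each tumor. The scripts were tested on simulated data. Python 3.11.15 was used for the rest. Reads of overlapping genes or paralogs cannot be separated in these values.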

Additional observations from a re-analysis of the deposited data

How the results depend on the processing

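Members kept their direction under the filters, scalings, variance models and the replicate block that could be applied to them. The size of a low member's change depended on the added constant. With 0.1 added in place of 1, the log2 fold change was 4.06 for Pthlh, 0.65 for Pth1r, 0.61 for Tnfrsf11b, -0.35 for Tnfsf11 and -0.44 for Atp2b2, and with voom on recovered reads it was 4.68, 0.84, 0.73, -0.98 and -3.99. Voom also left 1 gene with an adjusted p under 0.05, against 0. Casr, with 1 read in all, was not followed. Leaving out 1 tumor at a time gave 366 to 1001 higher and 375 to 1233 lower genes, 0 to 12 with an adjusted p under 0.05, and 3 to 8 higher and 3 to 13 lower list genes. Both extremes over all genes came from leaving out an IgG tumor, replicate 1 for the highest counts and replicate 2 for the lowest. The log2 fold change then ran from 2.11 to 2.66 for Pthlh, 0.11 to 0.37 for Pth1r, -0.16 to 0.047 for Tnfsf11, -0.047 to 0.30 for Tnfrsf11a, -0.025 to 0.72 for Tnfrsf11b and -0.06 to -0.04 for Atp2b2, and the RANKL to OPG difference from -1.91 to 0.18. Rgs2 changed sign without IgG replicate 3 (-0.052, in a range up to 0.74). The cause was not tested. Of the values of the 24 list genes picked by rule under all alternatives, 277 kept their direction and their side of an unadjusted p of 0.05, whatever the fold, 48 went from under to over 0.05 and 7 from over to under. Deviations from the group means had r of -0.16, 0.01 and 0.19 between tumors with the same replicate number. Between tumors with different numbers r ran from -0.26 to 0.24. Deviations from means of 3 tumors are bound to each other, so these values cannot decide whether the number is a pairing. The fit with the replicate number as a block gave 663 higher and 671 lower genes, 0 with an adjusted p under 0.05. It gave 7 higher and 10 lower list genes. Depth limits Casr, Tnfsf11 and Atp2b2, which had at most 1, 21 and 18 reads in a tumor.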

Other observations

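The marker lists not yet described give further values for the tissue in which these factors were measured. The 6 adipocyte markers summed to 4.76 to 6.00 FPKM in IgG and 2.10 to 7.23 FPKM in anti-PD-1 tumors. The 5 endothelial markers summed to 13.9 to 20.2 and 9.31 to 17.1 FPKM, with overlap and no gene called in either direction. The 5 skeletal muscle markers varied most, from 1.55 to 135 FPKM among IgG tumors and from 0.61 to 147 FPKM among anti-PD-1 tumors. High sums were found in IgG replicate 2 and in anti-PD-1 replicates 1 and 2. Pthlh was 0.102 FPKM in the first of these tumors and 4.98 and 8.88 FPKM in the others. The lowest sum, 0.61 FPKM, was that of anti-PD-1 replicate 3, where Pthlh was 4.71 FPKM. The part of muscle in these values was not tested.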
